A study of Mus musculus with 6 samples.

Results

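The 45 genes described here encode the enzymes that copy DNA in S phase: the helicase loader, its licensing factors, the MCM helicase and its activators, the replicative polymerases, the clamp and clamp loader, the single-strand binding complex, the enzymes that join Okazaki fragments and the main enzymes of deoxynucleotide supply. They were chosen by gene symbol, and all 45 were found among the 25701 rows of the table and passed the filter on low values (a 6-library mean of 10 or more), which left 15372 genes tested. RNA-seq was performed on cardiac progenitor (CP) cells derived from mouse embryonic stem cells of the 46C line, which carries a Sox1-GFP reporter. The 3 libraries of 46C-Ctrl came from the study's control cells of this line. The 3 libraries labelled Zhx1-KO came from cells edited by CRISPR/Cas9 with a pair of guides. The guides lay at the transcription start and stop of Zhx1, a zinc finger and homeobox factor. Both groups went through the same differentiation in a cardiomyocyte differentiation medium with BMP4, Activin A, VEGF and ascorbic acid and then in a second medium with VEGF, FGF10, bFGF and ascorbic acid. The sources used here do not give the number of knockout clones. The study describes its data as independent experiments, but the labels do not tie these libraries to separate cultures, so the p-values reflect only how far these libraries differ, and that spread may be technical.

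Replication starts when the origin recognition complex (ORC), Cdc6 and Cdt1 load the MCM ring onto DNA in G1. Cdc45 and GINS then join the ring to form the active helicase. Polymerase alpha with primase lays down primers, polymerases delta and epsilon extend them on the lagging and leading strands, and PCNA, the sliding clamp loaded by RFC, holds the polymerases on the template. Many of these genes are known targets of the E2F factors, and cycling embryonic cells express them at high levels.

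Several measurements of the libraries as a whole bear on the values below. Values are the authors' normalized counts, that is gene counts divided by 1 factor per library, and they summed to between 13877600 and 14554600 per library. Zhx1 itself stood at 460, 181 and 457 in 46C-Ctrl, against 225, 325 and 308 in libraries labelled Zhx1-KO, so the groups overlapped (log2 fold change of -0.25, limma adjusted p = 0.579). The two-sided exact permutation test of Zhx1 had p = 0.4 on the deposited values and p = 0.6 on the log2 scale, where 0.1 is the smallest p that 3 against 3 allows. Leaving out 46C-Ctrl replicate 2 put Zhx1 at -0.70 on the log2 scale (limma adjusted p = 0.0113). Without any other single library it did not pass, at -0.028 to -0.35 (limma adjusted p of 0.523 to 0.958). The level of the gene therefore does not settle the labels. Of the 6 CP markers, 5 were lower (Nkx2-5, Mef2c, Tbx5, Hand1 and Hand2, with log2 fold changes from -0.82 to -4.87) and Isl1 did not pass (-0.23), and their summed level was 7770 to 8527 in 46C-Ctrl against 1081 to 1159. Summed markers of endothelial cells were 939 to 1058 in 46C-Ctrl against 4521 to 4754 (7 of 8 higher), those of cardiomyocytes 7000 to 7955 against 9361 to 10193 (5 of 8 higher, 2 lower), those of fibroblasts 3108 to 3476 against 4433 to 5012 (5 of 7 higher, 1 lower) and those of neural cells 2744 to 3246 against 3404 to 3571 (5 of 7 tested higher, 1 lower, with Pax6 at 0 in every 46C-Ctrl library). Markers of the primitive streak moved the other way, from 5395 to 5531 down to 589 to 636 (7 of 8 lower), as did those of endoderm, from 3931 to 4067 down to 1720 to 1769 (7 of 8 lower), and those of pluripotent cells, from 5660 to 5831 down to 3406 to 3578 (5 of 8 tested lower, 1 higher, with Dppa3 at 0 in every library labelled Zhx1-KO). Single genes weigh heavily in these sums. Hand1 averaged 5774 in 46C-Ctrl against 198 in libraries labelled Zhx1-KO, Eomes of the primitive streak 2736 against 15.3, and Myh7 of cardiomyocytes 3577 against 4809. Nes, the neural marker that was lower, averaged 2804 against 1652. The part of these marker shifts in the levels of the replication genes was not tested.

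Promoters are shown for 4 genes that frame the comparison, namely Mcm6, the MCM subunit with the smallest adjusted p, Mcm5, an MCM subunit that did not pass, Pold2, with the largest rise, and Tyms, with the largest fall. Each run is the 250 bases before a transcription start in the RefSeq annotation of GRCm38.p6, read 5′ to 3′ on the gene's strand. Capitals mark matches, on either strand, to 3 E2F motifs (TTTCGCGC, TTTGGCGC and TTTCCCGC) and to the NF-Y motif (CCAAT, shown as its reverse complement where it lies on the other strand).
Mcm6, chr1:128359706-128359955, minus strand: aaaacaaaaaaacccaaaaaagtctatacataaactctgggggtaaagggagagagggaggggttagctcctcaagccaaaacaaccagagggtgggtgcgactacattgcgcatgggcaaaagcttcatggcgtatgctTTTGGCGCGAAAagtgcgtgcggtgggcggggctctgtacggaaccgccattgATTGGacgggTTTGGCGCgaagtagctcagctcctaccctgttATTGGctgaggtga
Mcm5, chr8:75109259-75109508, plus strand: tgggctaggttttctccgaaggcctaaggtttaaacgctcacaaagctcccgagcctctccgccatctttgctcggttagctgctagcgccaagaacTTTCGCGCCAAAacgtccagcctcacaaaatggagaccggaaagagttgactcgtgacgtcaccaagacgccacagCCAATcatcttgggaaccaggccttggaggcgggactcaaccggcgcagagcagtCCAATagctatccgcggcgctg
Pold2, chr11:5878257-5878506, minus strand: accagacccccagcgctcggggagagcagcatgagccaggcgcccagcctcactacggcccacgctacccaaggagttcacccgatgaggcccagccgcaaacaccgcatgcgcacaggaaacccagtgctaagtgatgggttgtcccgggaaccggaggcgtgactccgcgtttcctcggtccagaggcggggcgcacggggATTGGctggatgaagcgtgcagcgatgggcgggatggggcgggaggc
Tyms, chr5:30073626-30073875, minus strand: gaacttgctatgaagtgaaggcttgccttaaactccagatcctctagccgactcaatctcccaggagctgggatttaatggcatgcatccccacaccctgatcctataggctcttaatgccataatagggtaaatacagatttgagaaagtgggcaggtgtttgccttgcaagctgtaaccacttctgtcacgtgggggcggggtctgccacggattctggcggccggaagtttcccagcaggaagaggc
Mcm6 held TTTGGCGC starting 110 and 47 bases before the start, the first of which overlaps TTTCGCGC on the other strand, and NF-Y motifs starting 57 and 14 bases before it. Mcm5 held the same pair of E2F motifs as an overlapping match starting 153 bases before the start, and NF-Y motifs at 77 and 22. Pold2 held 1 NF-Y motif, at 47, and Tyms held none of the motifs. The table has a second Pold2 start, whose window (chr11:5877664-5877913) held none either. The table had a promoter for 37 of the 45 genes and none for Gins2, Rfc2, Gins1, Mcm4, Prim2, Gmnn, Gins4 and Pole. Of the 37, 9 (24.3%) held at least 1 of the 3 E2F motifs (Cdc6, Gins3, Mcm5, Mcm6, Mcm7, Orc1, Orc3, Pola1 and Rfc3), against 1.78% of the 27025 genes with a promoter. CCAAT was held by 23 (62.2%), against 37.5%. These matches are a description of the letters and not of binding.

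Expression of the replication genes was on balance higher in the libraries labelled Zhx1-KO than in 46C-Ctrl, by small amounts. By limma on log2(value + 1), with Benjamini-Hochberg adjustment across the whole set tested, 21 of the 45 rose, 2 fell (Pole and Tyms) and 22 did not pass. Over all 15372 genes tested 52.0% were called, 25.6% higher and 26.4% lower, so the share of replication genes called (51.1%) was near that of all genes, while 46.7% were higher and 4.44% lower. Among the 7835 genes with a mean at least as high as the lowest of the 45 (Gins3), 60.7% were called, 25.2% higher and 35.5% lower. The median log2 fold change of the 45 was 0.18, against 0.01 for all genes tested, and their range was -0.64 (Tyms) to 1.01 (Pold2). Only 5 were called and differed by at least 1.5-fold (Pold2, Rfc4, Rfc1 and Rpa1 higher, Tyms lower). The share at this threshold was 11.1%, against 30.1% of all genes tested and 23% of those 7835. Rfc1 and Rpa1, both at 0.59 on the log2 scale, lie close to that threshold, and the count was 3 without Zhx1-KO replicate 1 or without Zhx1-KO replicate 2. The groups did not overlap for 28 of the 45 (62.2%), 25 of them higher and 3 lower. This compares with 60.8% of all genes tested and 67.6% of those 7835. In bulk RNA, a change in the share of cells in S phase and a change in RNA per cell cannot be told apart.

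**Figure D1:**
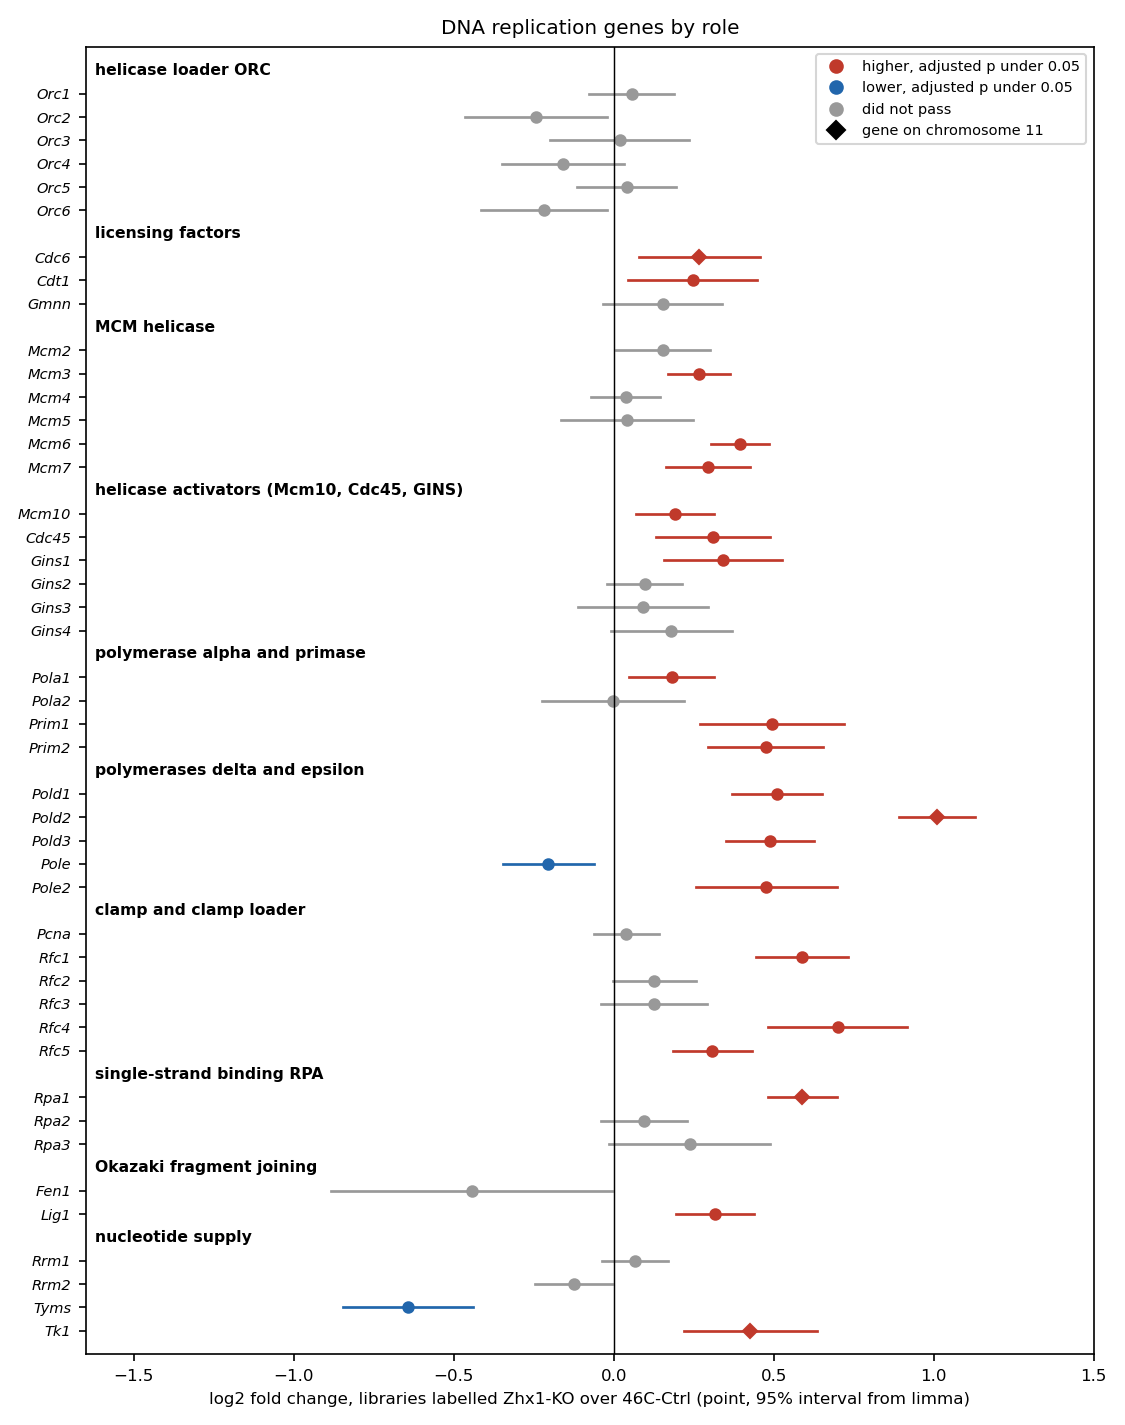
Log2 fold change of each of the 45 genes (x axis, libraries labelled Zhx1-KO over 46C-Ctrl, 3 libraries each) with its 95% interval from limma, grouped by role, red where higher, blue where lower and grey where the gene did not pass. Most points lie to the right of 0, with Pold2 farthest right at 1.01 and Tyms farthest left at -0.64, and the 6 ORC genes are all grey.

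The shift was seen in each library. The 45 genes took 0.533% to 0.536% of all values in 46C-Ctrl, against 0.627% to 0.643% in libraries labelled Zhx1-KO. Relative to the 46C-Ctrl mean, their median log2 difference was 0.14, 0.19 and 0.22 in Zhx1-KO replicates 1, 2 and 3, where 35, 38 and 35 of the 45 genes lay above that mean. The count of genes that fell depended on single libraries: it was 4 without 46C-Ctrl replicate 2, when Fen1 and Rrm2 also passed, and 1 without 46C-Ctrl replicate 3, when Pole no longer passed. Of all 6 libraries, 46C-Ctrl replicate 2 was most often the one farthest from its group's median, in 22 of the 45 genes. Zhx1-KO replicate 3 was close to it, in 20 of the 45.

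**Figure D2:**
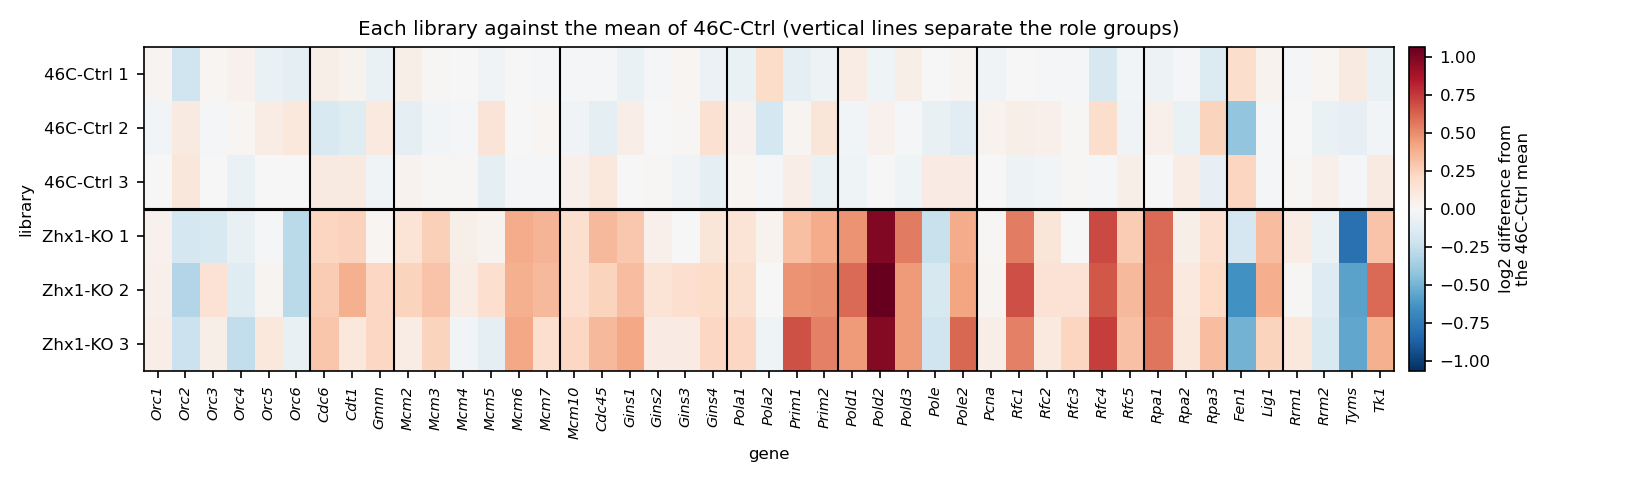
Log2 difference of each library (rows) from the 46C-Ctrl mean for each of the 45 genes (columns, vertical lines between role groups), with red above and blue below the mean. The 3 rows of libraries labelled Zhx1-KO are mostly red, with medians of 0.14, 0.19 and 0.22, and the blue columns there include Pole and Tyms.

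Genes on chromosome 11 were set beside those of all other chromosomes pooled. Of the 1185 genes tested on it, 57.0% were higher, with a median log2 fold change of 0.42, against 23.1% of the 13968 annotated elsewhere, with a median of -0.02. The 4 replication genes on chromosome 11 (Cdc6, Pold2, Rpa1 and Tk1) all rose, with a median of 0.51, and they include the largest rise. Among the 41 on other chromosomes, 17 rose, 2 fell and 22 did not pass (median 0.15). The part of the chromosome 11 shift in the rise of these 4 genes was not tested.

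The helicase loader was the only role group with no gene called. None of its 6 genes, the subunits of ORC, passed, with log2 fold changes from -0.24 (Orc2) to 0.06 (Orc1) and a median of -0.07. Orc2 passed without 46C-Ctrl replicate 1 (-0.35, limma adjusted p = 0.00648), as did Orc6 without 46C-Ctrl replicate 1 (-0.27, limma adjusted p = 0.0481) or without Zhx1-KO replicate 3 (-0.29, limma adjusted p = 0.0299).

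Of the licensing factors, which bring MCM to ORC, Cdc6 and Cdt1 rose and Gmnn, the inhibitor of Cdt1, did not pass (log2 fold change of 0.15, limma adjusted p = 0.147). Cdc6, the ATPase that completes the loader, was 649, 555 and 660 in 46C-Ctrl, against 728, 748 and 762 in libraries labelled Zhx1-KO. All 3 of the latter were above all 3 of the former (log2 fold change 0.27 ± 0.08 SE, limma adjusted p = 0.0265). Cdt1, which chaperones MCM to the origin, was 1607, 1424 and 1665 against 1855, 2036 and 1687. Here the groups were separated by the narrow gap between 1665 and 1687 (log2 fold change 0.25 ± 0.09 SE, limma adjusted p = 0.045). Cdc6 no longer passed without Zhx1-KO replicate 1, 2 or 3 (limma adjusted p of 0.0518, 0.0695 and 0.078), while its log2 fold change stayed at 0.29, 0.27 and 0.25. Cdt1 no longer passed without 46C-Ctrl replicate 1 or 2 (log2 fold changes of 0.27 and 0.18, limma adjusted p of 0.0724 and 0.113) or without Zhx1-KO replicate 1 or 2 (0.25 and 0.18, limma adjusted p of 0.0985 and 0.141). The ratio of Gmnn to Cdt1 was 0.572, 0.729 and 0.563 in 46C-Ctrl, against 0.526, 0.552 and 0.664 in libraries labelled Zhx1-KO, and the groups overlapped.

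Within the MCM ring, a complex of 6 different subunits, Mcm3, Mcm6 and Mcm7 rose and Mcm2, Mcm4 and Mcm5 did not pass. Mcm6 (chr1:128331590-128359664) was 4803, 4801 and 4749 in 46C-Ctrl, against 6287, 6227 and 6368 in libraries labelled Zhx1-KO. Its libraries lay close together within each group and far apart between groups (log2 fold change 0.40 ± 0.04 SE, limma adjusted p = 0.000117). Mcm3 was 4725, 4588 and 4707 against 5584, 5771 and 5504 (log2 fold change 0.27 ± 0.04 SE, limma adjusted p = 0.0013). Mcm7 was 5927, 6065 and 5933 against 7681, 7569 and 6771, with Zhx1-KO replicate 3 the lowest of its group but above all 46C-Ctrl libraries (log2 fold change 0.29 ± 0.06 SE, limma adjusted p = 0.00341). The exons of Mcm7 overlap by 321 bases those of Ap4m1, which lies on the other strand. Mcm2, Mcm4 and Mcm5 had log2 fold changes of 0.15, 0.04 and 0.04, and the groups of Mcm4 and Mcm5 overlapped. The ratio of Mcm6 to Mcm5 was 2.03 ± 0.161 (SD, n = 3) in 46C-Ctrl and 2.60 ± 0.285 (SD, n = 3) in the libraries labelled Zhx1-KO. Mcm6 and Mcm5, whose promoters above both hold E2F and NF-Y motifs, were thus on different sides of the threshold, and the difference between their changes was not tested.

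Of the 6 factors that turn the loaded ring into an active helicase, Gins1, Cdc45 and Mcm10 rose and Gins2, Gins3 and Gins4 did not pass. Gins1, a subunit of the GINS complex, was 341, 378 and 360 in 46C-Ctrl, against 438, 451 and 478 in libraries labelled Zhx1-KO (log2 fold change 0.34 ± 0.08 SE, limma adjusted p = 0.00859). Cdc45, which bridges MCM and GINS, was 571, 540 and 622 against 733, 681 and 735 (log2 fold change 0.31 ± 0.08 SE, limma adjusted p = 0.0108). In both genes every library labelled Zhx1-KO was above every 46C-Ctrl library. Mcm10, which acts in helicase activation, was 1128, 1118 and 1187 against 1291, 1294 and 1336 (log2 fold change 0.19 ± 0.05 SE, limma adjusted p = 0.0174), but its limma adjusted p was 0.0517 without 46C-Ctrl replicate 1 and 0.0598 without Zhx1-KO replicate 3, both at a log2 fold change of 0.18. The other GINS subunits had log2 fold changes of 0.10 (Gins2), 0.09 (Gins3) and 0.18 (Gins4), and Gins4 passed without 46C-Ctrl replicate 2 (0.26, limma adjusted p = 0.0131).

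The primer-making enzyme rose in 3 of its 4 subunits. Prim2, the large primase subunit, was 648, 737 and 641 in 46C-Ctrl, against 888, 948 and 979 in libraries labelled Zhx1-KO (log2 fold change 0.48 ± 0.08 SE, limma adjusted p = 0.00148). Prim1, the catalytic primase subunit, was 805, 876 and 905 against 1076, 1200 and 1380 (log2 fold change 0.49 ± 0.10 SE, limma adjusted p = 0.00381). Both primase genes were higher in all 3 libraries labelled Zhx1-KO than in any 46C-Ctrl library. Pola1, the catalytic subunit of polymerase alpha, was 1061, 1151 and 1127 against 1232, 1254 and 1299, a smaller difference with no overlap (log2 fold change 0.18 ± 0.06 SE, limma adjusted p = 0.0294). The call on Pola1 was lost without 46C-Ctrl replicate 1 (limma adjusted p = 0.0912) or 3 (0.0618) and without Zhx1-KO replicate 1 (0.0518), 2 (0.0698) or 3 (0.094), with log2 fold changes from 0.15 to 0.20. Pola2, the regulatory subunit, was at a log2 fold change of -0.00 (95% interval -0.23 to 0.22) and did not pass.

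Polymerases delta and epsilon had the highest median log2 fold change of the 10 role groups (0.49), and all 5 of their genes passed. Pold2 (chr11:5872180-5878292), the accessory subunit of polymerase delta, was 1330, 1417 and 1364 in 46C-Ctrl, against 2714, 2867 and 2704 in libraries labelled Zhx1-KO. The lowest library labelled Zhx1-KO was far above the highest 46C-Ctrl library (log2 fold change 1.01 ± 0.05 SE, limma adjusted p = 4.78e-06). Pold1, the catalytic subunit, was 1934, 1787 and 1768 against 2541, 2772 and 2509 (log2 fold change 0.51 ± 0.06 SE, limma adjusted p = 0.000314). Pold3, a further accessory subunit, was 1014, 964 and 940 against 1428, 1332 and 1332 (log2 fold change 0.49 ± 0.06 SE, limma adjusted p = 0.000336). The 3 delta subunits thus moved the same way, and the ratio of Pold2 to Pold1 was 0.751 ± 0.0555 in 46C-Ctrl, against 1.06 ± 0.0228 in libraries labelled Zhx1-KO (SD, n = 3 each).

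In polymerase epsilon, Pole fell and its accessory subunit Pole2 rose. Pole, the catalytic subunit of the leading-strand polymerase, was 1327, 1258 and 1415 in 46C-Ctrl, against 1130, 1186 and 1152 in libraries labelled Zhx1-KO, with no overlap (log2 fold change -0.20 ± 0.06 SE, limma adjusted p = 0.0243). Pole2 was 341, 311 and 355 against 442, 448 and 514 (log2 fold change 0.48 ± 0.10 SE, limma adjusted p = 0.00408). The ratio of Pole2 to Pole was 0.257, 0.247 and 0.251 in 46C-Ctrl, against 0.392, 0.378 and 0.446 in libraries labelled Zhx1-KO, so that it was higher in every library of the latter group. The call on Pole was lost without 46C-Ctrl replicate 1 (limma adjusted p = 0.057) or 3 (0.0844) and without Zhx1-KO replicate 1 (0.075) or 3 (0.0643), with log2 fold changes from -0.16 to -0.21. The other accessory subunits, which are not among the 45 genes, had negative log2 fold changes like Pole: Pole3 was 861, 816 and 836 against 581, 706 and 705 and fell (-0.34, limma adjusted p = 0.0137), and Pole4 did not pass (-0.23, limma adjusted p = 0.103). Pole2 overlaps the gene model Gm49384 on the same strand by 245 exon bases.

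**Figure D3:**
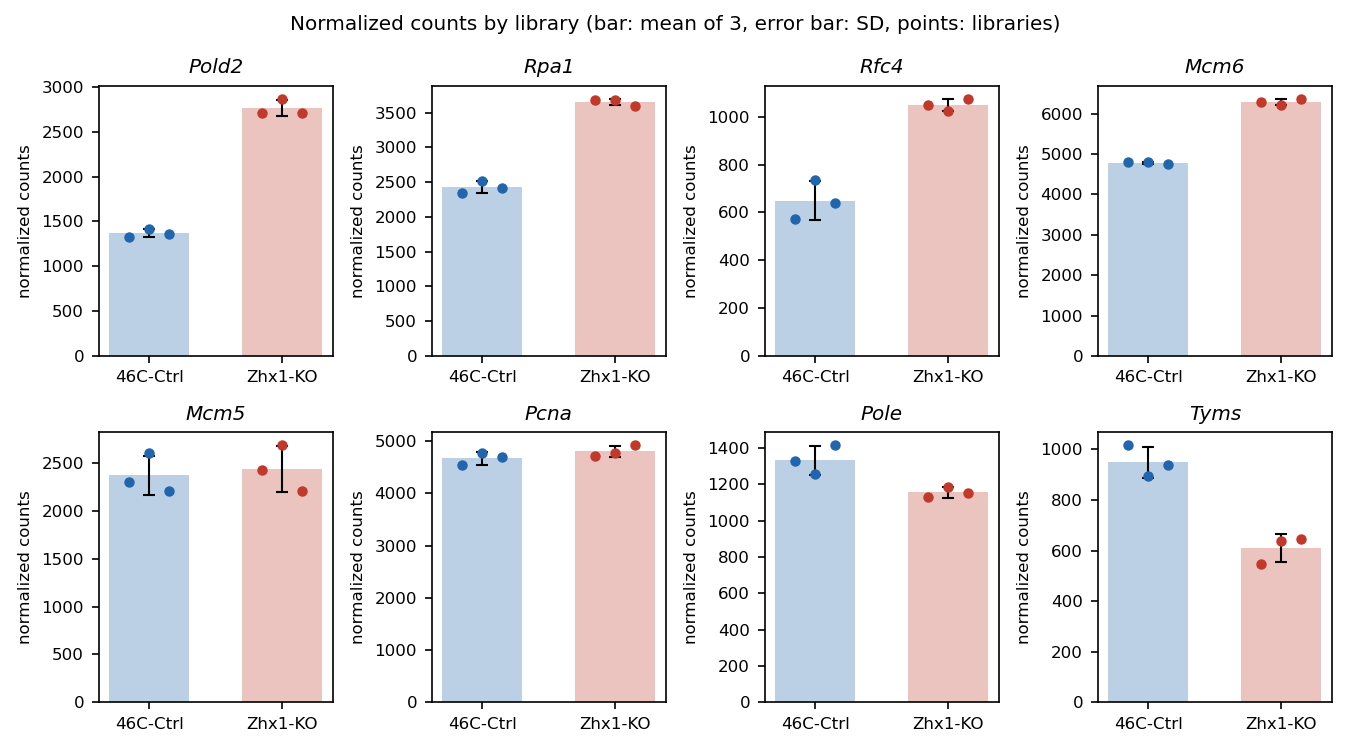
Normalized counts (y axes, each from 0) of Pold2, Rpa1, Rfc4, Mcm6, Mcm5, Pcna, Pole and Tyms in the 3 libraries of 46C-Ctrl and the 3 libraries labelled Zhx1-KO, with bars at the mean, error bars of 1 SD and a point for each library. Pold2 stands at 1330 to 1417 against 2704 to 2867 and Tyms at 895 to 1016 against 545 to 645, while the points of Mcm5 and Pcna overlap.

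The clamp loader rose in part and the clamp itself did not pass. Rfc1, the large subunit of the loader, was 1147, 1200 and 1110 in 46C-Ctrl, against 1685, 1851 and 1671 in libraries labelled Zhx1-KO (log2 fold change 0.59 ± 0.06 SE, limma adjusted p = 0.000161). Rfc4 (chr16:23113943-23127737), a small subunit, was 572, 734 and 639 against 1048, 1022 and 1075, with a wider spread in 46C-Ctrl but no overlap (log2 fold change 0.70 ± 0.09 SE, limma adjusted p = 0.000542). Rfc5, also a small subunit, was 1476, 1462 and 1573 against 1809, 1906 and 1869 (log2 fold change 0.31 ± 0.05 SE, limma adjusted p = 0.00196). On the other strand, Eif4a2 shares 194 exon bases with Rfc4, and Wsb2 shares 499 with Rfc5. The remaining small subunits, Rfc2 and Rfc3, both had a log2 fold change of 0.13. The ratio of Rfc4 to Rfc2 was 0.743 ± 0.0732 in 46C-Ctrl, against 1.10 ± 0.0467 in libraries labelled Zhx1-KO (SD, n = 3 each). Pcna was 4541, 4780 and 4691 against 4720, 4763 and 4917, and its groups overlapped (log2 fold change 0.04, 95% interval -0.06 to 0.14, limma adjusted p = 0.48). The annotation holds pseudogenes of Pcna (Pcna-ps1 and Pcna-ps2), with which it may share reads.

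In the RPA trimer, which coats the single strands behind the helicase, Rpa1 rose and Rpa2 and Rpa3 did not pass. Rpa1 (chr11:75298166-75348324), the large DNA-binding subunit, was 2344, 2519 and 2421 in 46C-Ctrl, against 3683, 3675 and 3599 in libraries labelled Zhx1-KO, well apart from each other (log2 fold change 0.59 ± 0.05 SE, limma adjusted p = 3.92e-05). Rpa2 and Rpa3 had log2 fold changes of 0.09 and 0.24, and Rpa3 passed without 46C-Ctrl replicate 2 (0.36, limma adjusted p = 0.00807). The ratio of Rpa1 to Rpa2 was 1.97 ± 0.151 in 46C-Ctrl, against 2.78 ± 0.0807 in libraries labelled Zhx1-KO (SD, n = 3 each).

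Of the enzymes that finish Okazaki fragments, Lig1, the ligase, was 3469, 3356 and 3338 in 46C-Ctrl, against 4258, 4430 and 3981 in libraries labelled Zhx1-KO, and it rose with no overlap (log2 fold change 0.32 ± 0.05 SE, limma adjusted p = 0.00164). Fen1, the flap nuclease, was 1101, 725 and 1135 against 856, 617 and 680. Its low 46C-Ctrl replicate 2 lay within the range of the other group, and it did not pass (log2 fold change -0.44 ± 0.19 SE, limma adjusted p = 0.0837), but it passed without 46C-Ctrl replicate 2 (-0.65, limma adjusted p = 0.00618) or without Zhx1-KO replicate 1 (-0.58, limma adjusted p = 0.0492). Of the 2422 exon bases of Fen1, 1909 lie under the antisense gene Gm10143. The study aligned its reads and computed FPKM with stranded settings, but whether the gene counts used strand is not stated. If they did not, the values of Fen1 would hold reads of both genes. The same limit applies to other genes with exons under a gene on the other strand. Among them are Gins2 (2758 bases, Gse1), Orc2 (1150 bases, Nif3l1) and Rfc2 (952 bases, Lat2).

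Deoxynucleotide supply changed in both directions. Tyms (chr5:30058202-30073617), thymidylate synthase, which makes dTMP anew, was 1016, 895 and 939 in 46C-Ctrl, against 545, 637 and 645 in libraries labelled Zhx1-KO. Every library labelled Zhx1-KO was below every 46C-Ctrl library (log2 fold change -0.64 ± 0.09 SE, limma adjusted p = 0.000604). Tk1, thymidine kinase, which makes dTMP by salvage, was 771, 795 and 864 against 997, 1227 and 1053, with the groups apart in the other direction (log2 fold change 0.43 ± 0.09 SE, limma adjusted p = 0.00522). The ratio of Tyms to Tk1 was 1.32, 1.13 and 1.09 in 46C-Ctrl, against 0.547, 0.519 and 0.613 in libraries labelled Zhx1-KO. The subunits of ribonucleotide reductase did not pass, with log2 fold changes of 0.07 (Rrm1) and -0.13 (Rrm2), and Rrm2 passed without 46C-Ctrl replicate 2 (-0.16, limma adjusted p = 0.0291). A pseudogene of Tyms (Tyms-ps) is annotated, with which it may share reads.

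Levels of different genes were compared as normalized counts per kilobase of exon. The length is that of all annotated exons of a gene joined (7458 bases for Orc4, 6089 for Tyms), not of the transcript expressed. Ranks between genes therefore depend in part on the annotation. Pcna had the highest level in both groups (1946 in 46C-Ctrl, against 2000 in libraries labelled Zhx1-KO), followed by Mcm7 (1350 and 1658). Orc4 had the lowest level in both (59.0 and 53.0), and Orc3 was next to it (79.6 and 81.0). Rrm2 was at rank 3 in 46C-Ctrl (1341) and at rank 7 in the other group (1229), and of the 6 MCM ring subunits Mcm5 was the least abundant in both (593 and 610). The ORC subunits were spread out, with Orc6 at rank 19 of 45 in 46C-Ctrl. Pold2 moved from rank 9 of 45 (723 per kilobase) to rank 4 (1457), and Tyms moved from rank 32 to rank 43.

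**Figure D4:**
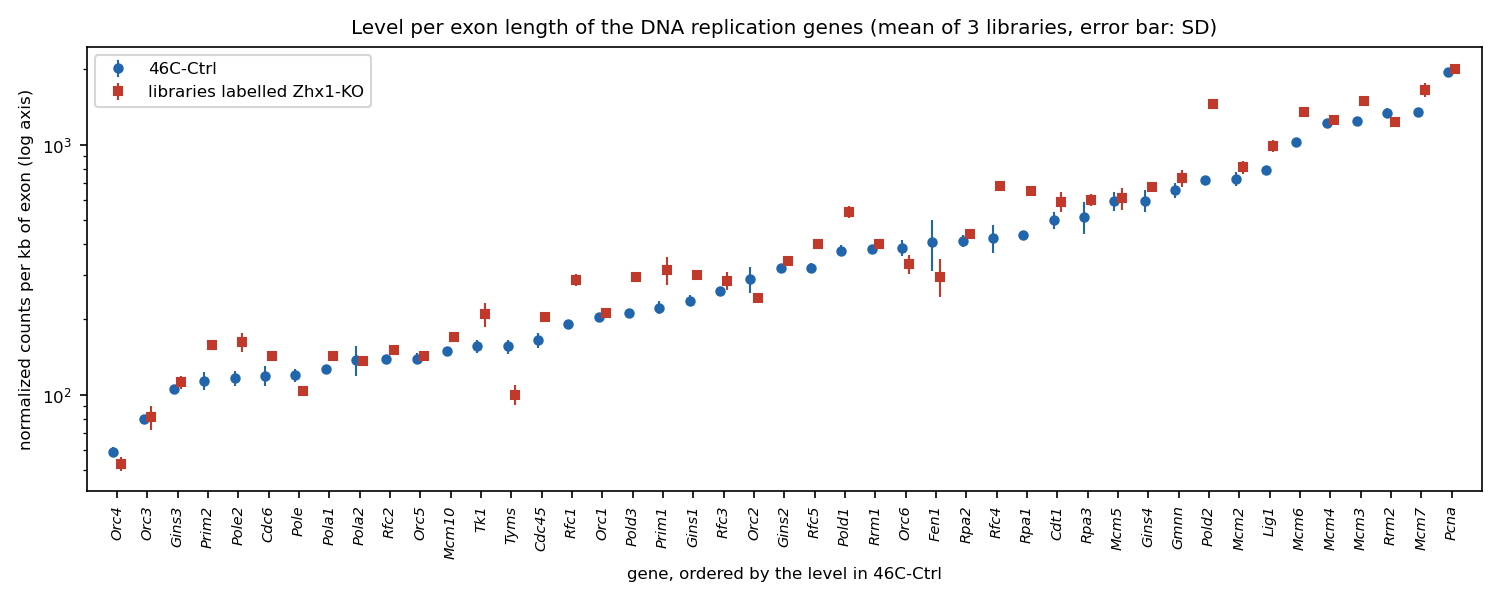
Normalized counts per kilobase of exon (y axis, log scale) for the 45 genes, ordered by their level in 46C-Ctrl, with the mean and SD of 3 libraries in 46C-Ctrl (circles) and in the libraries labelled Zhx1-KO (squares). Levels run from Pcna (1946 in 46C-Ctrl) to Orc4 (59.0), and Pold2 and Tyms show wide gaps between circle and square.

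Genes that work beside the replication enzymes were counted in 7 further lists of 144 genes in all, of which 44 were higher and 35 lower, with a median log2 fold change of 0.02. Their share called (54.9%) was near the 52.0% of all genes tested. By list, 47.1% of the other licensing and origin firing factors and 33.3% of the fork protection and checkpoint genes were called. For the other polymerase, clamp and Okazaki fragment factors it was 38.5%, and for chromatin assembly 66.7%. Of 17 other licensing and origin firing factors, 4 rose and 4 fell (median 0.04), but the number higher was 1 without Zhx1-KO replicate 1 or 2 and 2 without 46C-Ctrl replicate 3 or Zhx1-KO replicate 3. Ddb1 and Dtl are parts of the ligase that degrades Cdt1: Ddb1 fell by 0.37 on the log2 scale and Dtl rose by 0.35. Of 12 fork protection and checkpoint genes, 4 rose and none fell, with 8 that did not pass (median 0.08), and Atr, the checkpoint kinase, rose from 448, 441 and 479 to 943, 902 and 1101 (log2 fold change 1.10, limma adjusted p = 4.36e-05). Timeless, a fork protection factor, and Hus1, of the checkpoint clamp, rose by 0.80 and 0.75. Hus1 lies on chromosome 11, as does Atad5 below, and the part of the chromosome 11 shift in their values was not tested. Of 13 other polymerase, clamp and Okazaki fragment factors, 4 rose and 1 fell (median 0.02), and 2 fell without Zhx1-KO replicate 3. Those that rose include Pclaf, a PCNA-binding factor, at 0.49, Atad5, the clamp unloader, at 0.53, and Pold4, the smallest subunit of polymerase delta, at 0.81, and the gene that fell was Pole3, named above after its values were seen. Of 15 chromatin assembly genes, 7 rose and 3 fell (median 0.04), with Supt16 (0.37) and Chaf1b (0.52) higher and Rbbp7 lower (-0.60).

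In the E2F and Rb list, 5 of 34 genes rose and 15 fell (median -0.15), a direction unlike that of the 45 genes, although the difference between the lists was not tested. The share called was 58.8%, against 52.0% of all genes tested. The list holds both activators and inhibitors of the cell cycle, so its counts by direction do not describe 1 change of the cycle. Those that fell include E2f1 (-0.29), E2f3 (-0.54), E2f4 (-0.29), E2f7 (-0.70), Ccne2 (-0.98), Cdk6 (-1.23) and the inhibitor Cdkn1a (-0.58). E2f2, E2f5, E2f6 and E2f8 did not pass. The 5 that rose were Cdk2 (0.26), Tfdp2 (0.51), Rb1 (0.85), Rbl2 (0.90) and Cdkn1c. The 3 genes with the smallest adjusted p all encode inhibitors of cyclin-dependent kinases. Cdkn2a was 404, 411 and 453 in 46C-Ctrl, against 74.6, 77.9 and 72.2 in libraries labelled Zhx1-KO (log2 fold change -2.48, limma adjusted p = 2.56e-06). Cdkn2b was 335, 265 and 368 against 33.3, 26.3 and 23.8 (log2 fold change -3.49, limma adjusted p = 8.01e-06). Cdkn1c moved the other way, from 23.4, 23.8 and 71.7 to 1736, 1774 and 1678 (log2 fold change 5.61, limma adjusted p = 2.08e-05). All 3 inhibitors were thus fully separated between the groups, with Cdkn2a and Cdkn2b lower and Cdkn1c higher.

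**Figure D5:**
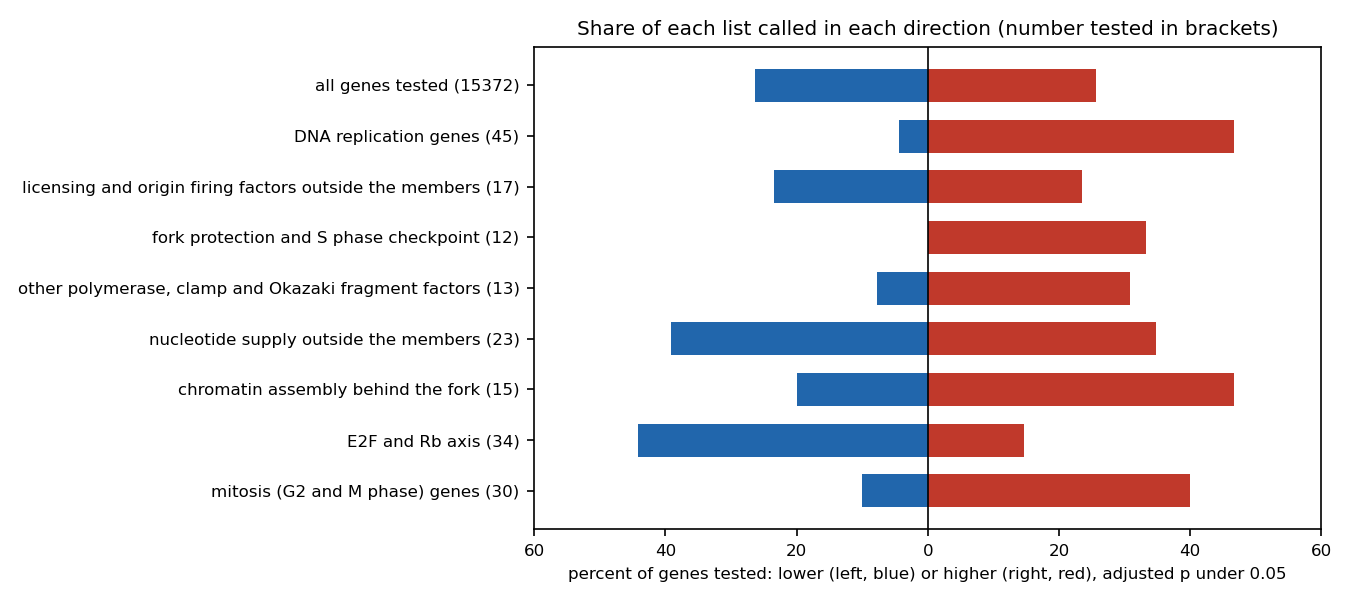
Percent of the genes tested in each list that were higher (right, red) or lower (left, blue) at an adjusted p under 0.05, with the number tested in brackets. The 45 replication genes reach 46.7% higher and 4.44% lower, against 25.6% and 26.4% for all genes tested, and the E2F and Rb list reaches 14.7% and 44.1%.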

How the data were processed

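RNA-seq libraries of CP cells (46C-Ctrl, n = 3; labelled Zhx1-KO, n = 3) were analysed. According to the methods and processing notes, reads were trimmed with cutadapt 1.18 and aligned to GRCm38 with HISAT2 2.1.0, and FPKM was calculated with StringTie 1.3.4d, both with stranded settings. Cufflinks and DESeq2 are further tools in the authors' notes. For the count table, the counting program and its strand setting are not given in the sources used here. The deposited values are a signal: the authors' gene counts divided by 1 factor per library, each a whole multiple of 1 step per library (from 0.88 to 1.05). Divided by the step, library sums were 13769967 to 15940874, which are the counted reads if 1 step is 1 read, and depth limits the low genes most.

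From these values, log2(value + 1) was tested with limma 3.58.1 (R 4.3.3, mean trend, all 6 libraries) in 15372 genes (mean of 10 or more). Calls required a Benjamini-Hochberg adjusted p under 0.05 over all genes tested, and fold changes on this scale understate changes of low genes. Each role group's called genes with the smallest adjusted p, up to 3 per direction, were named with every library, and other genes by range or log2 fold change. Pole2, Fen1, Pcna, the ratios and the genes of the promoters shown were added after their values were seen. The permutation test of Zhx1 is given on the deposited values and on the log2 scale, the latter added after the result of the former was seen. The members and lists were chosen with earlier results of these data known. Positions and exon lengths came from GENCODE M21 (GRCm38) and promoters from RefSeq. Same-numbered libraries did not deviate together, so no block was used. Other scalings, filters, pseudocounts, a block and leaving out each library were tried as alternatives.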

Additional observations from a re-analysis of the deposited data

How the results depend on the processing

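Of the 23 replication genes called, 18 were called under each of the 15 other settings, and the exceptions were Cdc6, Cdt1, Mcm10, Pola1 and Pole. The number lower was 1 after quantile normalization, 1 without the limma trend and 1 to 4 when each library was left out. The number changed at least 1.5-fold was 3 after TMM-like rescaling and 3 to 6 with a library left out. Of the 22 not called, 8 were called under no setting. The number higher was 18 without the trend and 18 to 22 with a library left out. Quantile normalization gave 30 genes higher, 26 of them off chromosome 11, and a median log2 fold change of 0.28. After it Gmnn, Mcm2, Mcm4, Gins2, Gins4, Rfc2, Rfc3, Rpa2 and Rrm1 passed, which they did not in the main fit. Which subunits of a complex passed therefore depended in part on the scaling. With a library left out, Zhx1 ranged from -0.70 (without 46C-Ctrl replicate 2) to -0.028. Signs turned in genes that were not called: with a library left out, Orc3 ranged from -0.050 to 0.11, Mcm5 from -0.031 to 0.11 and Pola2 from -0.096 to 0.096, and Pola2 was at 0.11 after quantile normalization and at 0.013 after rescaling from genes off chromosome 11, a setting chosen after seeing the data. Without the trend, 1 other licensing gene was higher and 1 mitosis gene lower, and after quantile normalization 2 other licensing genes, 0 other polymerase genes and 0 mitosis genes were lower. The causes were not tested. With the replicate number as a block, 19 genes were higher and 2 lower: Cdt1, Pola1 and Pole (limma adjusted p = 0.0538) no longer passed and Fen1 did (-0.44, limma adjusted p = 0.0199). The correlations of same-numbered libraries' deviations were 0.0042, -0.07 and 0.00059. These values cannot show whether same-numbered libraries were prepared together, and the labels do not say. The planned edgeR and DESeq2 tests were not run, because, although values were whole multiples of a step (within 0.01 steps), a second check of the low values did not accept this for Zhx1-KO replicates 1 and 2.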

Other observations

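Among 23 further genes of nucleotide supply, 8 rose and 9 fell (median log2 fold change -0.07). The share called was 73.9%, against 52.0% of all genes tested. Samhd1, which breaks down deoxynucleotides, was 2455, 2370 and 2606 in 46C-Ctrl, against 947, 1100 and 1018 in libraries labelled Zhx1-KO, with no overlap (log2 fold change -1.28, limma adjusted p = 6.89e-06). Impdh2, of guanine nucleotide synthesis, rose by 0.58 on the log2 scale, and Mthfd2, of mitochondrial folate metabolism, rose by 0.83.

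Of 30 genes of mitosis, 12 rose and 3 fell (median 0.14), but the number lower was 1 without 46C-Ctrl replicate 3 or without Zhx1-KO replicate 1. The share called was 50%, with 40% higher and 10% lower. Over all genes tested it was 52.0%, with 25.6% higher and 26.4% lower. The 3 with the smallest adjusted p, Hmmr (0.96), Top2a (0.73) and Aurkb (0.71), all lie on chromosome 11, where 4 of 4 rose, while of the 26 on other chromosomes 8 rose and 3 fell (median 0.12). The part of the chromosome 11 shift in these values was not tested.

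Mcm9, a relative of the MCM subunits named here after its values were seen, was 147 and 158 in 46C-Ctrl replicates 1 and 2 and listed at 0 in replicate 3, against 175, 210 and 187 in libraries labelled Zhx1-KO. It did not pass (limma adjusted p = 0.229), and no fold is given because that single 0 sets it.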
